A study of Mus musculus with 12 samples.

Results

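The comparison described here sets 3 libraries from mouse embryonic stem cells kept for 6 days in 2i with 50 µM of an MRE11 inhibitor against 3 libraries from cells kept for the same 6 days in 2i with 25 µM of it. These are 6 of the 12 libraries of the series, picked by the dose their labels give, and all gene IDs of the mouse annotation were compared. The other libraries came from cells in 2i alone at day 6 (3 libraries) and from cells at day 0, which the labels call primed (3 libraries). All cells were of R1, a male line of 129/Sv background grown on gelatin in medium with 15% FBS and LIF. Every group used below therefore shares the line, and both doses share 2i and its duration. The labels do not name the inhibitor, and no library of cells given it without 2i or given a second MRE11 inhibitor was analysed here. R1 is 1 line, so nothing here bears on other lines. Whether the replicates of a dose were grown separately is not stated in the labels, and a p-value may then reflect technical spread alone.

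MRE11 is the nuclease of a complex with RAD50 and NBN that senses DNA breaks, trims their ends for homologous recombination and processes stalled replication forks. 2i is a pair of inhibitors, one of MEK in the ERK pathway and one of GSK3 in the Wnt pathway, that holds mouse embryonic stem cells in a ground state known as naive, in which DNA methylation is low and naive transcription factors are high. The comparison of doses asks which transcripts differ when the cells have 2i throughout and only the amount of inhibitor changes.

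RNA was measured by 3′ mRNA sequencing, in which reads come from the poly(A) end of transcripts, and a normalized count is given in CPM, the counts of a gene scaled to a common library size, with no correction for length. The 6 libraries held 6032550 to 7060126 counts. Markers of embryonic stem cells were present at both doses: all 20 naive factors listed were detected, and Nanog, a core naive factor, had 989, 1006 and 1100 CPM at 50 µM and 1087, 1225 and 1050 CPM at 25 µM. Pou5f1, which encodes OCT4 and defines these cells, had only 132 counts over the 3 libraries at 50 µM and 127 at 25 µM in the deposited tables, and the cause was not tested. The share of counts from mitochondrially encoded genes was 6.82%, 5.42% and 5.42% at 50 µM and 5.69%, 5.05% and 4.61% at 25 µM. At an equal depth of 6032550 counts, 18498, 18799 and 18750 genes had a count at 50 µM and 18934, 18916 and 19013 at 25 µM. On the first principal component of the 6 libraries, with 40.6% of the variance, replicates 1 to 3 lay at 20.6, 5.96 and 9.10 at 50 µM and at -2.86, -16.9 and -15.9 at 25 µM, so replicate 1 lay above the other two of its group at each dose. The part of these differences in the results below was not tested.

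Few genes separated the doses in the main fit, which did not pair the replicates, and most of them were lower at 50 µM. In edgeR's quasi-likelihood test with Benjamini-Hochberg adjustment, 153 of 13230 genes had an adjusted p below 0.05 (1.16%), 24 of them higher (0.181%) and 129 lower (0.975%) at 50 µM. Of the lower genes 50 were lower by at least 2-fold, and of the higher genes 3 were higher by at least 2-fold. The median log2 fold change of 50 µM over 25 µM was -0.88 among the lower genes, 0.77 among the higher genes and 0.01 over all genes tested. In each of the 153 genes the 3 libraries at 50 µM lay apart from the 3 at 25 µM, which fixes the direction of all 3 same-numbered pairs. The genes were picked by a test on these same libraries, so this is not separate support. Groups that did not overlap were seen in 7.48% of all tested genes with 50 µM above and in 9.21% with 50 µM below.

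Same-numbered libraries of the doses deviated together, and a fit with the replicate number as a block called 542 genes (4.1%), of which 168 were higher (1.27%) and 374 lower (2.83%) at 50 µM. All 153 genes were among them. Leaving out 1 library at a time moved the count to 68, 107 and 73 genes without replicates 1, 2 and 3 at 50 µM, and to 203, 38 and 42 genes without replicates 1, 2 and 3 at 25 µM. Of the 6 omissions, that of replicate 1 at 25 µM raised the count and the other five lowered it. Of the 153 genes 30 were called in all 6 of these fits, 27 lower and 3 higher, and these are named as such below.

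**Figure D1:**
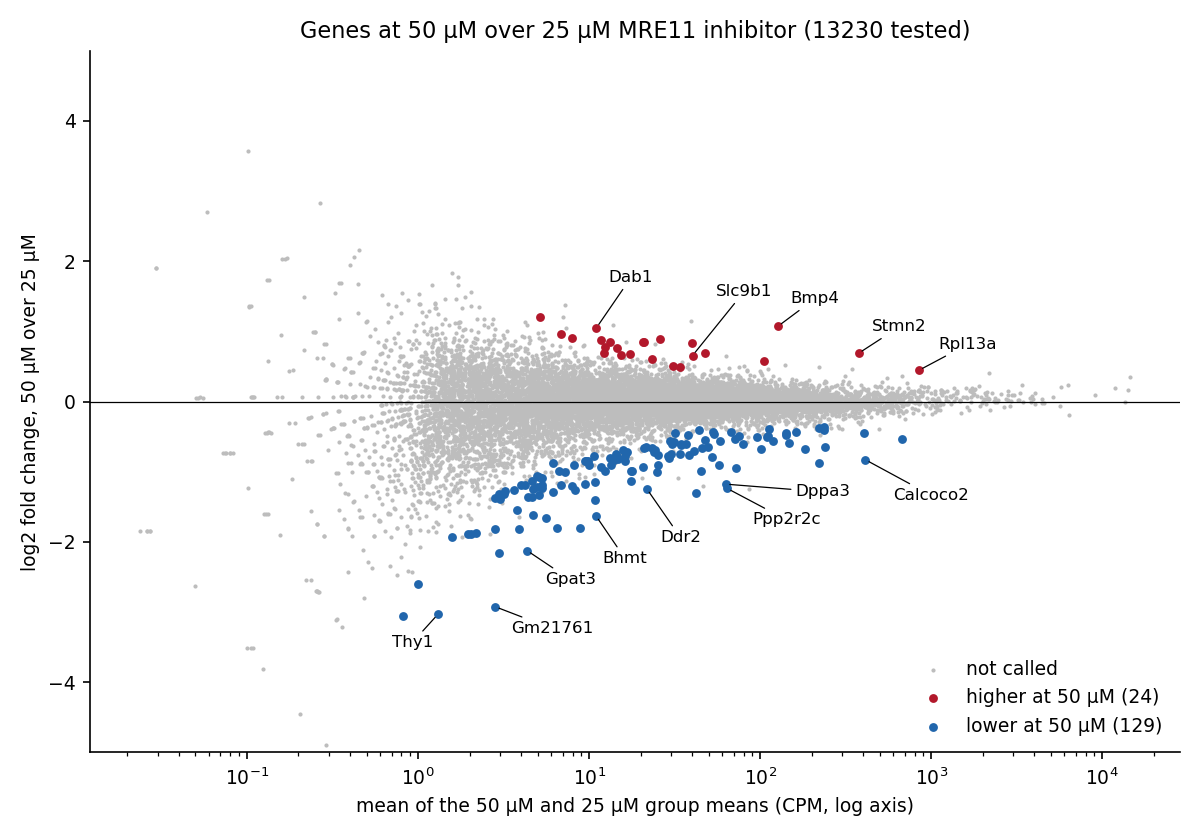
Each point is 1 of the 13230 genes tested, with the mean of the 2 group means in CPM on a log axis and the log2 fold change of 50 µM over 25 µM on the vertical axis. The 24 genes called higher at 50 µM are red, the 129 called lower are blue, and most of the called genes lie below 0.

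The gene of the inhibitor's target and those of its partners were not called. Mre11a, the gene of the nuclease, had 51.5, 50.0 and 53.1 CPM at 50 µM and 54.7, 51.7 and 45.3 CPM at 25 µM, which overlap, with a log2 fold change of 0.03 ± 0.10 (SE; edgeR adjusted p = 0.959). Rad50, the ATPase of the complex, had a log2 fold change of -0.01 ± 0.09, and Nbn, the subunit that binds the ATM kinase, of 0.12 ± 0.13. An inhibitor acts on the protein, so transcript levels of the complex do not check the treatment.

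No gene of DNA break repair or fork protection was called between the doses. Of 60 measured members of a list with the MRE11 complex, homologous recombination, fork protection and end joining, edgeR called 0 in either direction, with 2 higher and 2 lower at an unadjusted p below 0.05 (4.68% and 7.37% over all genes), and DESeq2 called 0 as well. The member with the smallest p was Trp53bp1, whose protein (53BP1) shields broken ends from trimming. It had 54.5, 71.3 and 61.8 CPM at 50 µM and 74.0, 90.5 and 86.1 CPM at 25 µM, groups that do not overlap. Its log2 fold change was -0.41 ± 0.11, with an edgeR adjusted p of 0.0825, and of 0.00174 with the replicate block. The block called 1 further member, H2afx, the histone variant phosphorylated at breaks, which was higher (log2 fold change 0.28 ± 0.12), and the fit without replicate 1 at 25 µM also called 1 higher and 1 lower.

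Of 64 measured replication factors 1 was called, and the median log2 fold change over the list was 0.04, beside 0.01 over all genes. At an unadjusted p below 0.05, 6 were higher and 1 lower (4.68% and 7.37% over all genes). In the list 45 had a positive and 19 a negative log2 fold change. With the block Gins2, a subunit of the replicative helicase, was called higher. Its log2 fold change was 0.27 ± 0.08 (edgeR adjusted p = 0.145, and 0.0191 with the block). The called member was Ccne1, cyclin E1, which with CDK2 starts S phase, and it was lower: 92.2, 103 and 98.4 CPM at 50 µM and 123, 127 and 134 CPM at 25 µM (log2 fold change -0.39 ± 0.09, edgeR adjusted p = 0.0302). When 1 library was left out, the Ccne1 call held only without replicate 1 at 25 µM, with adjusted p up to 0.178. Cdt1, which loads the MCM helicase on origins, had 383, 348 and 356 CPM at 50 µM and 335, 305 and 299 CPM at 25 µM, apart but not called (adjusted p = 0.285). Among 30 genes of G2 and mitosis edgeR and DESeq2 called 0, with 1 higher at an unadjusted p below 0.05; with the block that gene, the spindle checkpoint gene Mad2l1, was called (adjusted p = 0.0320). Cdkn1a, the p53 target that encodes the CDK inhibitor p21, overlapped between the doses with a log2 fold change of -0.15 ± 0.12.

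The germline genes that were called were all lower at 50 µM. Genes of this list, silenced by promoter DNA methylation in most body cells, can be transcribed at a low level in mouse embryonic stem cells when methylation falls. Of 37 measured members 4 were called lower (10.8%, beside 0.975% over all genes) and 0 higher. In the list 27 had a negative log2 fold change, and the list's median was -0.31 beside 0.01 over all genes. With the replicate block 9 were lower and 0 higher (2.83% and 1.27% over all genes), the added members being Xlr4a, Rec8, Rpl10l, Tuba3a and Xlr3a. The summed level of the list was 912, 1135 and 983 CPM at 50 µM and 1160, 1473 and 1462 CPM at 25 µM.

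Smc1b, the meiotic cohesin subunit, had 19, 20.7 and 16.7 CPM at 50 µM and 29.8, 32.5 and 33.5 CPM at 25 µM. The groups lay well apart, with a log2 fold change of -0.76 ± 0.12 (edgeR adjusted p = 0.000999), and Smc1b was called in all 6 fits that left out a library. Hormad2, a protein of the meiotic chromosome axis, had 2.64, 5.82 and 5.99 CPM at 50 µM and 8.63, 14.8 and 11.6 CPM at 25 µM. In both doses replicate 1 was the lowest, and the log2 fold change was -1.26 ± 0.24 (edgeR adjusted p = 0.00866, and 0.0811 without replicate 2 at 25 µM). Rhox5, an X-linked homeobox gene of the reproductive tract, had 140, 163 and 121 CPM at 50 µM and 181, 256 and 238 CPM at 25 µM (log2 fold change -0.67 ± 0.13, edgeR adjusted p = 0.0120). Tex19.1, which restrains retrotransposons in the germline, had 162, 200 and 195 CPM at 50 µM and 237, 301 and 337 CPM at 25 µM (log2 fold change -0.65 ± 0.14, edgeR adjusted p = 0.0304). When 1 library was left out, both calls held without replicate 1 at 25 µM, and that of Rhox5 also without replicate 2 at 50 µM; without any other library they were lost, with adjusted p up to 0.0838 for Rhox5 and 0.166 for Tex19.1.

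The promoters of 3 of these genes are shown because their CpG sites, written here in capitals as CG, are the bases that DNA methylation marks; no methylation was measured in these libraries. Each is the RefSeq window of 300 bases around the transcription start in build GRCm38.p6, read 5′ to 3′ on the gene's own strand: Smc1b on the minus strand at chr15:85131908-85132207, Tex19.1 on the plus strand at chr11:121145893-121146192, and Hormad2 on the minus strand at chr11:4441033-4441332.
Smc1b: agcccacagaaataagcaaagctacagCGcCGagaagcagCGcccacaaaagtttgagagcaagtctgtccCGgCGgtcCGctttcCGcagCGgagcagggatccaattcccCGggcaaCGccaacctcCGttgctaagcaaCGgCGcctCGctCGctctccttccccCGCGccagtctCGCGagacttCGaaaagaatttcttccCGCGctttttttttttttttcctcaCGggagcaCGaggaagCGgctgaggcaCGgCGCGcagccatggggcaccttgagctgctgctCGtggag
Tex19.1: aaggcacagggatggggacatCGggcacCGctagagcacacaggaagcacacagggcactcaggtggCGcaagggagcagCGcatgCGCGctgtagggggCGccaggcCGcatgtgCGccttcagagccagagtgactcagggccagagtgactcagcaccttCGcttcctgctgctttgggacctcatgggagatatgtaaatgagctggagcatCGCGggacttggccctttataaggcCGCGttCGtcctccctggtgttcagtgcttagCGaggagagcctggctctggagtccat
Hormad2: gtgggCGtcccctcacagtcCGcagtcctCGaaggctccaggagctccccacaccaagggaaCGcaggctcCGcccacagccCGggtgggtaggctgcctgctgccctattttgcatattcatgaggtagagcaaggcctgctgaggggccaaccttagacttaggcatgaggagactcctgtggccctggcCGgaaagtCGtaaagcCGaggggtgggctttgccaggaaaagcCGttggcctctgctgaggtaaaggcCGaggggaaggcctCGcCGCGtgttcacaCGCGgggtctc
The Smc1b window holds 29 CG sites, and those of Tex19.1 and Hormad2 hold 16 each. Windows within 1000 bases of the annotated gene start were matched by symbol for 8868 of the tested genes, and their median was 21 CG sites; 26.8% of them held at least as many as Smc1b and 71.3% at least as many as Tex19.1 and Hormad2. The 31 matched promoters of the germline list had a median of 18 CG sites, the 18 of called higher genes a median of 15 and the 82 of called lower genes a median of 15.

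Of the naive and general pluripotency factors, Dppa3 alone was called. Of 20 measured naive factors 1 was called (lower) and the median log2 fold change was 0.02. Of 18 general pluripotency genes edgeR and DESeq2 called 0. At an unadjusted p below 0.05, 4 of the 18 were higher and 0 lower (4.68% and 7.37% over all genes). With the block Fbxo15 was called lower and Eras, a Ras-like gene of embryonic stem cells, higher; Eras had 22.7, 17.9 and 25.7 CPM at 50 µM and 14.4, 16.6 and 15.5 CPM at 25 µM (edgeR adjusted p = 0.0887, and 0.0191 with the block). Nanog (log2 fold change -0.12 ± 0.10), Tfcp2l1 (-0.10 ± 0.08) and Esrrb (0.10 ± 0.09), transcription factors of the naive network, were not called. Dppa3, also known as Stella, shields DNA from maintenance methylation in germ cells, oocytes and early embryos. It had 24.7, 43.1 and 47.6 CPM at 50 µM and 72.0, 98.9 and 91.2 CPM at 25 µM, with replicate 1 lowest at both doses and no overlap. The log2 fold change was -1.18 ± 0.23 (edgeR adjusted p = 0.0340, and 1.03e-10 with the replicate block). The call was lost without replicate 2 at 50 µM and without replicate 2 or 3 at 25 µM, with adjusted p up to 0.152. Dppa3 was also the 1 called member among 24 genes of the DNA methylation machinery, whose median was 0.05, and Dnmt3b, a de novo methyltransferase, had a log2 fold change of 0.14 ± 0.11 (edgeR adjusted p = 0.688). With the block Tet1, a dioxygenase of 5-methylcytosine, was called higher, with a log2 fold change of 0.29 ± 0.19 (edgeR adjusted p = 0.623, and 0.0108 with the block).

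Among 21 measured factors of primed and formative epiblast 1 was called. Otx2, a homeobox factor that starts the exit to the formative state, was lower, with 28.0, 27.9 and 32.1 CPM at 50 µM and 49.2, 40.0 and 44.7 CPM at 25 µM. Its log2 fold change was -0.61 ± 0.12 (edgeR adjusted p = 0.0117), lost without replicate 1 or 2 at 50 µM or replicate 3 at 25 µM, with adjusted p up to 0.0650. The list's median was -0.04.

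Genes of the 2-cell-like state, a rare state of these cultures with transcripts of the early embryo, had few or no counts at 50 µM, apart from Eif1a and Zfp809, which other cells also express and which carried 4175 and 796 counts at 50 µM and 4503 and 838 at 25 µM. The Zscan4 genes, which mark that state, are near-identical copies that share reads, so the 3 measured ones (Zscan4a, Zscan4c and Zscan4d) were summed: 0, 0 and 1 count at 50 µM and 2, 10 and 5 counts at 25 µM. The ratio of the sums after scaling by library size was 0.0620, with an exact 95% interval of 0.00148 to 0.396 that covers counting error only. Sp110 had 1, 1 and 0 counts at 50 µM and 2, 7 and 8 counts at 25 µM (ratio 0.124, interval 0.0139 to 0.523; edgeR adjusted p = 0.143). Over the list, of which only 12 of 27 passed the low-count filter, edgeR and DESeq2 called 0. At an unadjusted p below 0.05, 6 were lower and 0 higher (7.37% and 4.68% over all genes). All 12 had a negative log2 fold change. The filter used every library of the series. Members such as the 3 Zscan4 genes, with summed counts of 30, 51 and 39 in 2i alone, passed it through libraries outside the comparison of doses. The shared direction of members picked in this way is not taken as support. With the replicate block Sp110 was called (adjusted p = 0.0485). In bulk RNA, fewer cells of a kind and less RNA per cell cannot be told apart.

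Transcripts of 3 enzymes on the paths from homocysteine to methionine and cysteine were lower at 50 µM. Homocysteine is either methylated back to methionine, by betaine-homocysteine methyltransferase (Bhmt) among others, or turned into cysteine by cystathionine beta-synthase (Cbs) and cystathionine gamma-lyase (Cth). Bhmt had 3.35, 5.82 and 6.80 CPM at 50 µM and 16.3, 15.8 and 17.8 CPM at 25 µM (log2 fold change -1.63 ± 0.21, edgeR adjusted p = 0.000162). Cth had 46.7, 36.4 and 37.4 CPM at 50 µM and 73.7, 84.9 and 66.3 CPM at 25 µM (log2 fold change -0.90 ± 0.12, edgeR adjusted p = 0.000236). The groups of both genes were far apart, 3.09-fold in mean for Bhmt by the fit. Cbs had 18.2, 25.4 and 20.6 CPM at 50 µM and 35.3, 37.3 and 37.6 CPM at 25 µM (log2 fold change -0.78 ± 0.12, edgeR adjusted p = 0.00162). All 3 were called in each of the 6 fits that left out a library. They were the only called members of 28 measured genes of betaine, methionine and sulfur amino acid metabolism (10.7%, beside 0.975% lower over all genes), whose median was -0.07. At an unadjusted p below 0.05, 0 were higher and 7 lower (4.68% and 7.37% over all genes). The replicate block added Cdo1, which oxidises cysteine, and Dmgdh, which demethylates dimethylglycine, both lower.

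The integrated stress response is the programme that the factor ATF4 runs when translation initiation is held back. Among its 44 measured targets 3 were called lower (6.82%, beside 0.975% over all genes) and 0 higher, with a list median of -0.08. With the replicate block 5 were lower and 1 higher (2.83% and 1.27% over all genes), the added members being Vegfa and Pycr1 (lower) and Slc7a3 (higher). Cth is one of the 3 members called without the block. Ddit4, an inhibitor of mTORC1 that p53 and hypoxia also induce, had 35.4, 43.6 and 35.9 CPM at 50 µM and 68.9, 54.8 and 75.4 CPM at 25 µM (log2 fold change -0.79 ± 0.12, edgeR adjusted p = 0.000932) and was called in all 6 fits that left out a library. Atf3, a stress-induced transcription factor, had 0.529, 0.298 and 0 CPM at 50 µM and 2.04, 0.976 and 2.13 CPM at 25 µM. The edgeR adjusted p of Atf3 was 0.0498, and the call was lost in each of the 6 fits that left out a library. Asns, the asparagine synthetase and a standard ATF4 target, was at 447 CPM at 50 µM and 480 CPM at 25 µM on average, with a log2 fold change of -0.10 ± 0.09. Ddit4 was also the 1 called gene among 30 p53 targets (median -0.08). At an unadjusted p below 0.05, 6 of them were lower and 0 higher (7.37% and 4.68% over all genes). The block added Trp53inp1 and Btg2, both lower. Of 25 apoptosis genes edgeR and DESeq2 called 0, with 1 lower at an unadjusted p below 0.05.

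Falls with very small p belonged to genes of several kinds. Ppp2r2c, a regulatory subunit of protein phosphatase 2A, had 31.7, 44.5 and 38.0 CPM at 50 µM and 81.4, 94.7 and 93.9 CPM at 25 µM (log2 fold change -1.24 ± 0.12, edgeR adjusted p = 6.93e-06). Ddr2, a receptor tyrosine kinase for fibrillar collagen, had 14.6, 13.3 and 10.8 CPM at 50 µM and 31.1, 31.4 and 29.3 CPM at 25 µM (log2 fold change -1.24 ± 0.13). Gsto1, a glutathione transferase, had 52.7, 50.4 and 43.9 CPM at 50 µM and 94.9, 98.9 and 90.2 CPM at 25 µM (log2 fold change -0.95 ± 0.10). All of them were called in each of the 6 fits that left out a library.

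Other large falls came at lower levels. Trpm1, a cation channel of melanocytes and retinal bipolar cells, had 7.05, 5.82 and 4.86 CPM at 50 µM and 14.7, 16.1 and 16.0 CPM at 25 µM (log2 fold change -1.41 ± 0.19). Prag1, a pseudokinase that regulates Src-family signalling, had 6.17, 7.01 and 6.96 CPM at 50 µM and 16.9, 14.8 and 13.2 CPM at 25 µM (log2 fold change -1.15 ± 0.16). Both held in each of the 6 fits that left out a library. Falls of Elobl, an elongin B-like gene (-1.17 ± 0.27), Fbp2, fructose-bisphosphatase 2 (-1.13 ± 0.24), and Atp6v0a4, a subunit of the vacuolar proton pump (-1.09 ± 0.23), were called but held in only 2, 2 and 1 of those fits. In each case one of these was the fit without replicate 1 at 25 µM, and for Elobl and Fbp2 the other was without replicate 2 at 50 µM (edgeR adjusted p up to 0.212). Outside the rule for named genes, and picked after their values were seen for being called in all 6 such fits, Gm21761, a predicted gene, had 0.881, 0.597 and 0.486 CPM at 50 µM and 5.02, 3.58 and 6.39 CPM at 25 µM, and Calcoco2, related to the human autophagy receptor NDP52, had 267, 331 and 293 CPM at 50 µM and 512, 564 and 506 CPM at 25 µM. Picked in the same way, the fatty acid-binding protein gene Fabp5 averaged 30.3 ± 2.8 CPM at 50 µM and 60.0 ± 14.0 CPM at 25 µM (SD, n = 3 each), and Gpat3, an acyltransferase of glycerolipid synthesis, 1.59 ± 0.44 and 7.07 ± 1.42 CPM at 50 and 25 µM.

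**Figure D2:**
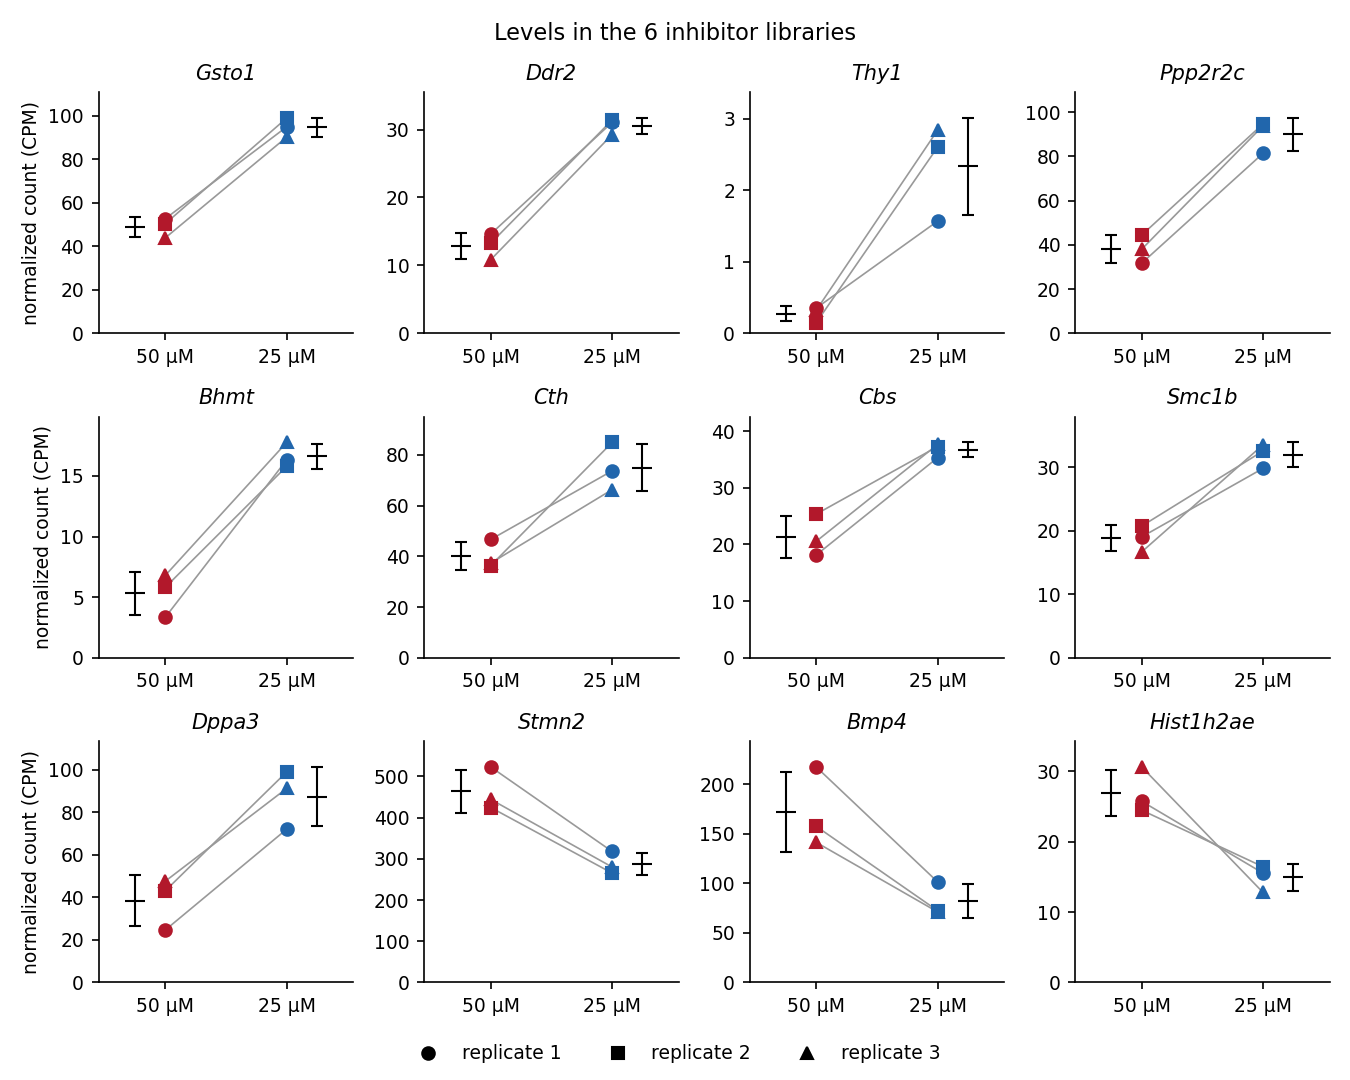
Normalized counts (CPM) of 12 genes in each of the 6 libraries, 50 µM at left in red and 25 µM at right in blue; symbols give the replicate number, grey lines join the same number, and black bars are mean ± SD (n = 3). The groups do not overlap in any panel, with 9 genes lower and Stmn2, Bmp4 and Hist1h2ae higher at 50 µM.

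Thy1 and Ddr2 stood on a list of fibroblast and feeder-cell markers. Thy1, a surface glycoprotein of thymocytes, neurons and fibroblasts, had 2, 1 and 2 counts at 50 µM and 10, 16 and 20 counts at 25 µM (ratio 0.115, exact 95% interval 0.0355 to 0.287; log2 fold change -3.03 ± 0.49, edgeR adjusted p = 0.00202) and was called in all 6 fits that left out a library. Of 14 measured markers 2 were called lower (14.3%, beside 0.975% over all genes) and 0 higher, with a median of -0.45. The summed level of the list overlapped only at its edge, at 719 to 813 CPM at 50 µM and 810 to 828 CPM at 25 µM. Most of that sum came from Fn1, Vim and Cald1, which other cells also express and which had 6983, 4016 and 2235 counts over the 3 libraries at 50 µM and 7172, 3617 and 3518 at 25 µM. The fibrillar collagen genes Col1a1, Col1a2 and Col5a1 had 14, 11 and 93 counts at 50 µM and 35, 12 and 160 at 25 µM. Of the 22 listed markers 4 (Col6a1, Col6a2, Dcn and S100a4) had 0 counts in all 6 libraries, Col3a1 had 1 count at 50 µM and 0 at 25 µM, and Lum 0 and 3. The part of such cells in the results was not tested.

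Of 20 endoderm markers 5 passed the low-count filter, edgeR and DESeq2 called 0 (0 at an unadjusted p below 0.05 in either direction), and the summed level was 32.2 to 41.3 CPM at 50 µM and 38.7 to 48.7 CPM at 25 µM. Ttr and Cer1 had 0 counts in the 6 libraries. Of 13 measured trophoblast markers 1 was lower: Tfap2a, a transcription factor of trophoblast and surface ectoderm, with 7.22, 11.5 and 11.2 CPM at 50 µM and 15.7, 20.5 and 17.3 CPM at 25 µM (log2 fold change -0.83 ± 0.19, edgeR adjusted p = 0.0343). That call held only without replicate 1 at 25 µM when 1 library was left out, with adjusted p up to 0.206. With the block 3 were lower and 0 higher (2.83% and 1.27% over all genes), the added members being Gata3 and Tfap2c. Of the 13 measured, 5 had a positive and 8 a negative log2 fold change. Tead4, Eomes and Krt8 had 281, 130 and 63 counts at 50 µM and 260, 117 and 52 at 25 µM. The sum of the list was 121 to 159 CPM at 50 µM and 158 to 201 CPM at 25 µM. The trophoblast markers Elf5, Plac1, Tpbpa and Prl3d1 had 0 counts in all 6 libraries.

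Bmp4, a TGF-beta family ligand of gastrulation, had the largest rise among called genes above 3 in mean log2 CPM, with predicted and clone names left out. It had 218, 158 and 141 CPM at 50 µM and 102, 72.6 and 71.3 CPM at 25 µM, with replicate 1 the highest of each dose and no overlap. The log2 fold change was 1.07 ± 0.20, a 2.10-fold difference (edgeR adjusted p = 0.0220, and 1.14e-11 with the replicate block), and the call was lost without replicate 2 or 3 at 25 µM (adjusted p up to 0.135). Bmp4 was the 1 called gene of 11 measured mesoderm and primitive streak markers, whose median was -0.03. T (brachyury), the defining streak gene, had 0 counts over the libraries at 50 µM and 11 at 25 µM.

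Other higher genes had several kinds of product. Stmn2, which binds tubulin in growing axons, had 523, 425 and 444 CPM at 50 µM and 318, 266 and 280 CPM at 25 µM (log2 fold change 0.69 ± 0.10, edgeR adjusted p = 0.000594). It was called in all 6 fits that left out a library, as was Dab1, the adaptor of the reelin pathway, with 17.8, 12.4 and 14.6 CPM at 50 µM and 7.37, 7.16 and 6.96 CPM at 25 µM (log2 fold change 1.05 ± 0.19, edgeR adjusted p = 0.00591). Ntn1, the axon guidance ligand netrin-1, averaged 33.9 ± 6.4 CPM at 50 µM and 18.3 ± 4.1 CPM at 25 µM (SD, n = 3 each; log2 fold change 0.90 ± 0.16). Adam23, a surface protein of neurons, Pdzd4, a PDZ-domain protein, and Rtn1, a reticulon of neurons, had log2 fold changes of 0.85 ± 0.15, 0.85 ± 0.16 and 0.91 ± 0.22. When 1 library was left out, Ntn1 lost its call without replicate 3 at either dose, Adam23 without replicate 2 and Pdzd4 without replicate 3 at 25 µM, and Rtn1 kept its call only without replicate 2 at 50 µM (edgeR adjusted p up to 0.238). Zdhhc15, a palmitoyltransferase, Lmo4, a LIM-domain transcription cofactor, and Tmem39b, a membrane protein, were also higher, by 0.87, 0.78 and 0.69 on the log2 scale, and held in 2, 1 and 0 of those fits (edgeR adjusted p up to 0.231).

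On the list of neuroectoderm and neuronal genes Stmn2 alone was called of 17 measured members, with a median of 0.18. At an unadjusted p below 0.05, 4 were higher and 1 lower (4.68% and 7.37% over all genes). With the block Ncam1, a neural cell adhesion molecule, was called higher as well, with a log2 fold change of 0.30 ± 0.10 (edgeR adjusted p = 0.190, and 0.0396 with the block). The summed level, in which Stmn2 is the largest term, was 829 to 900 CPM at 50 µM and 603 to 654 CPM at 25 µM. Sox1, which defines neuroectoderm, had 75 counts over the libraries at 50 µM and 73 at 25 µM, and of the 30 listed genes 3 (Dcx, Neurog2 and Fabp7) had 0 in all 6. After Stmn2, with 8557 counts at 50 µM and 5632 at 25 µM, the largest sums were those of Ncam1, Tubb3, Nefl and Mapt. They had 3333, 1299, 762 and 642 counts at 50 µM and 2860, 1291, 713 and 655 at 25 µM. Of the 17 measured members 14 had a positive and 3 a negative log2 fold change. The neurofilament gene Nefm was lower without overlap, with 3.35, 7.91 and 7.12 CPM at 50 µM and 8.16, 9.76 and 12.8 CPM at 25 µM. Slc9b1, a sodium-proton exchanger, was the third higher gene called in all 6 fits, with 51.8, 46.7 and 49.2 CPM at 50 µM and 29.6, 32.4 and 31.7 CPM at 25 µM (log2 fold change 0.66 ± 0.11, edgeR adjusted p = 0.00260).

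The replication-dependent histone genes that were called were higher at 50 µM. The mRNAs of these genes end in a stem-loop and mostly lack a poly(A) tail, so libraries primed on poly(A) hold few of them, and near-identical copies can share reads. Of 28 measured genes 2 were called higher (7.14%, beside 0.181% over all genes) and 0 lower. With the replicate block 5 were higher and 0 lower (1.27% and 2.83% over all genes). At an unadjusted p below 0.05, 15 were higher and 1 lower (4.68% and 7.37% over all genes). The median log2 fold change was 0.69, the highest of the 38 lists, and 2 of the 28 had a negative one. Hist1h2ae, a core H2A gene, had 25.7, 24.5 and 30.6 CPM at 50 µM and 15.5, 16.4 and 12.8 CPM at 25 µM (log2 fold change 0.85 ± 0.16, edgeR adjusted p = 0.00725; lost without replicate 3 at either dose, adjusted p up to 0.0669). Hist1h4i, a core H4 gene, had 14.8, 18.2 and 21.7 CPM at 50 µM and 11.3, 10.7 and 10.4 CPM at 25 µM (log2 fold change 0.76 ± 0.16, edgeR adjusted p = 0.0220; held only without replicate 1 of either dose, adjusted p up to 0.153). The summed level was 272, 256 and 289 CPM at 50 µM and 210, 160 and 180 CPM at 25 µM, with no overlap. The linker histone genes Hist1h1a and Hist1h1d went against the rest. Hist1h1a had 3.52, 2.98 and 3.56 CPM at 50 µM and 4.55, 3.90 and 6.39 CPM at 25 µM, which do not overlap. Hist1h1d had 2.11, 3.13 and 1.94 CPM at 50 µM and 2.67, 2.60 and 2.98 CPM at 25 µM, which overlap.

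Among 77 cytosolic ribosomal protein genes Rpl13a alone was called. It had 1003, 877 and 1052 CPM at 50 µM and 698, 748 and 706 CPM at 25 µM, with a log2 fold change of 0.45 ± 0.09 (edgeR adjusted p = 0.0119), beside a list median of 0.07. The call was lost without replicate 1 or 3 at 50 µM and without replicate 2 or 3 at 25 µM, with adjusted p up to 0.0764, and processed copies of Rpl13a in the genome can share its reads. With the block Rpl27a was called higher too. Mitochondrially encoded genes had a median of 0.19 over 8 members, and edgeR called 0 and DESeq2 1 higher. At an unadjusted p below 0.05, 3 were higher and 0 lower (4.68% and 7.37% over all genes). mt-Cytb, the cytochrome b gene, had the smallest p of them, with a log2 fold change of 0.36 ± 0.10 (edgeR adjusted p = 0.0910, and 0.00751 with the block).

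The 1 called gene of 40 measured imprinted genes was Rian, a maternally expressed noncoding RNA of the Dlk1-Dio3 region. It had 43.2, 57.1 and 53.6 CPM at 50 µM and 24.3, 24.2 and 37.5 CPM at 25 µM (log2 fold change 0.83 ± 0.16, edgeR adjusted p = 0.0103; lost without replicate 2 or 3 at 50 µM or replicate 2 at 25 µM, adjusted p up to 0.0829). Its neighbours on the same strand, Meg3 and Mirg, had log2 fold changes of 0.46 ± 0.26 and 0.66 ± 0.19 and were called with the replicate block only (adjusted p = 0.00452 and 0.00712). The list as a whole had a median of -0.04, with 4 higher and 3 lower under the block (1.27% and 2.83% over all genes).

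Some lists held no call in the main fit but several when the replicate number was a block. For glycolysis and lactate handling edgeR called 0 of 33 measured genes, with 0 higher and 10 lower at an unadjusted p below 0.05, DESeq2 called 2 lower, and the block called 8 lower and 0 higher. Over all genes, 4.68% were higher and 7.37% lower at an unadjusted p below 0.05, and 1.27% and 2.83% were called with the block. The 8 were Aldoc, Ldhb, Tpi1 and Slc2a3, of glycolysis, lactate handling and glucose uptake, and Vegfa, Bnip3, Ankrd37 and Egln3. The last 4 are hypoxia-inducible genes and not genes of glycolysis, and Vegfa also counts on the stress response list. Vegfa, the angiogenic factor that hypoxia induces, had 3.52, 10.4 and 6.31 CPM at 50 µM and 12.9, 16.1 and 10.7 CPM at 25 µM, which do not overlap although replicate 1 differed from the others at 50 µM (log2 fold change -0.93 ± 0.27, edgeR adjusted p = 0.128, and 0.00382 with the block). For ERK pathway targets edgeR called 0 of 20, with 5 higher and 3 lower at an unadjusted p below 0.05, DESeq2 called 1 higher and 1 lower, and the block called 4 higher and 2 lower, so that no single direction ran through the list. Dusp1, a phosphatase of MAP kinases, had 28.7, 32.4 and 29.8 CPM at 50 µM and 35.1, 48.2 and 48.4 CPM at 25 µM (edgeR adjusted p = 0.0534).

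In the Wnt pathway, 1 of 14 measured targets was called: Apcdd1, a membrane inhibitor of Wnt ligands, was lower, averaging 10.7 ± 0.4 CPM at 50 µM and 18.4 ± 1.8 CPM at 25 µM (SD, n = 3 each; log2 fold change -0.78 ± 0.17, edgeR adjusted p = 0.0247). When 1 library was left out, the call held only without replicate 1 at 25 µM (adjusted p up to 0.159). Among 34 lysosome and autophagy genes Hexa, a lysosomal hexosaminidase subunit, was lower at 43.9, 42.1 and 48.6 CPM at 50 µM and 58.7, 59.2 and 67.9 CPM at 25 µM. Its log2 fold change was -0.47 ± 0.11 (edgeR adjusted p = 0.0449), and the call held only without that same library (adjusted p up to 0.275). On this list the block called 5 lower and 0 higher (2.83% and 1.27% over all genes). On the remaining lists, which cover Polycomb, chaperones, heat shock, NRF2 and aryl hydrocarbon receptor targets, cholesterol synthesis, respiratory subunits, ribosome biogenesis, splicing kinases, interferon, cell cycle entry and basement membrane, edgeR called 0 members in either direction. At an unadjusted p below 0.05 no more than 5 members of any of those lists were higher and no more than 4 lower; DESeq2 called 1 lower Polycomb member and 1 higher cell cycle entry member, and 0 on the others. With the replicate block some of these lists held calls. Among 34 Polycomb genes Ring1, Cbx7 and Phc1 were called higher and Kdm2b lower, and among 26 NRF2 targets Txnrd1 and Abcc4 were called higher and Gsta4 lower. Myc and E2f8 of cell cycle entry, Clk3 of the splicing kinases, Sdhc of the respiratory subunits and Nop58 of ribosome biogenesis were called higher. Lamb1 of basement membrane, Scd2 of cholesterol synthesis, Hspb8 of heat shock and Pdia6 of the chaperones were called lower, and of the interferon genes Ddx58 was called higher and Oas1a lower. Aryl hydrocarbon receptor targets had 0 calls with the block.

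**Figure D3:**
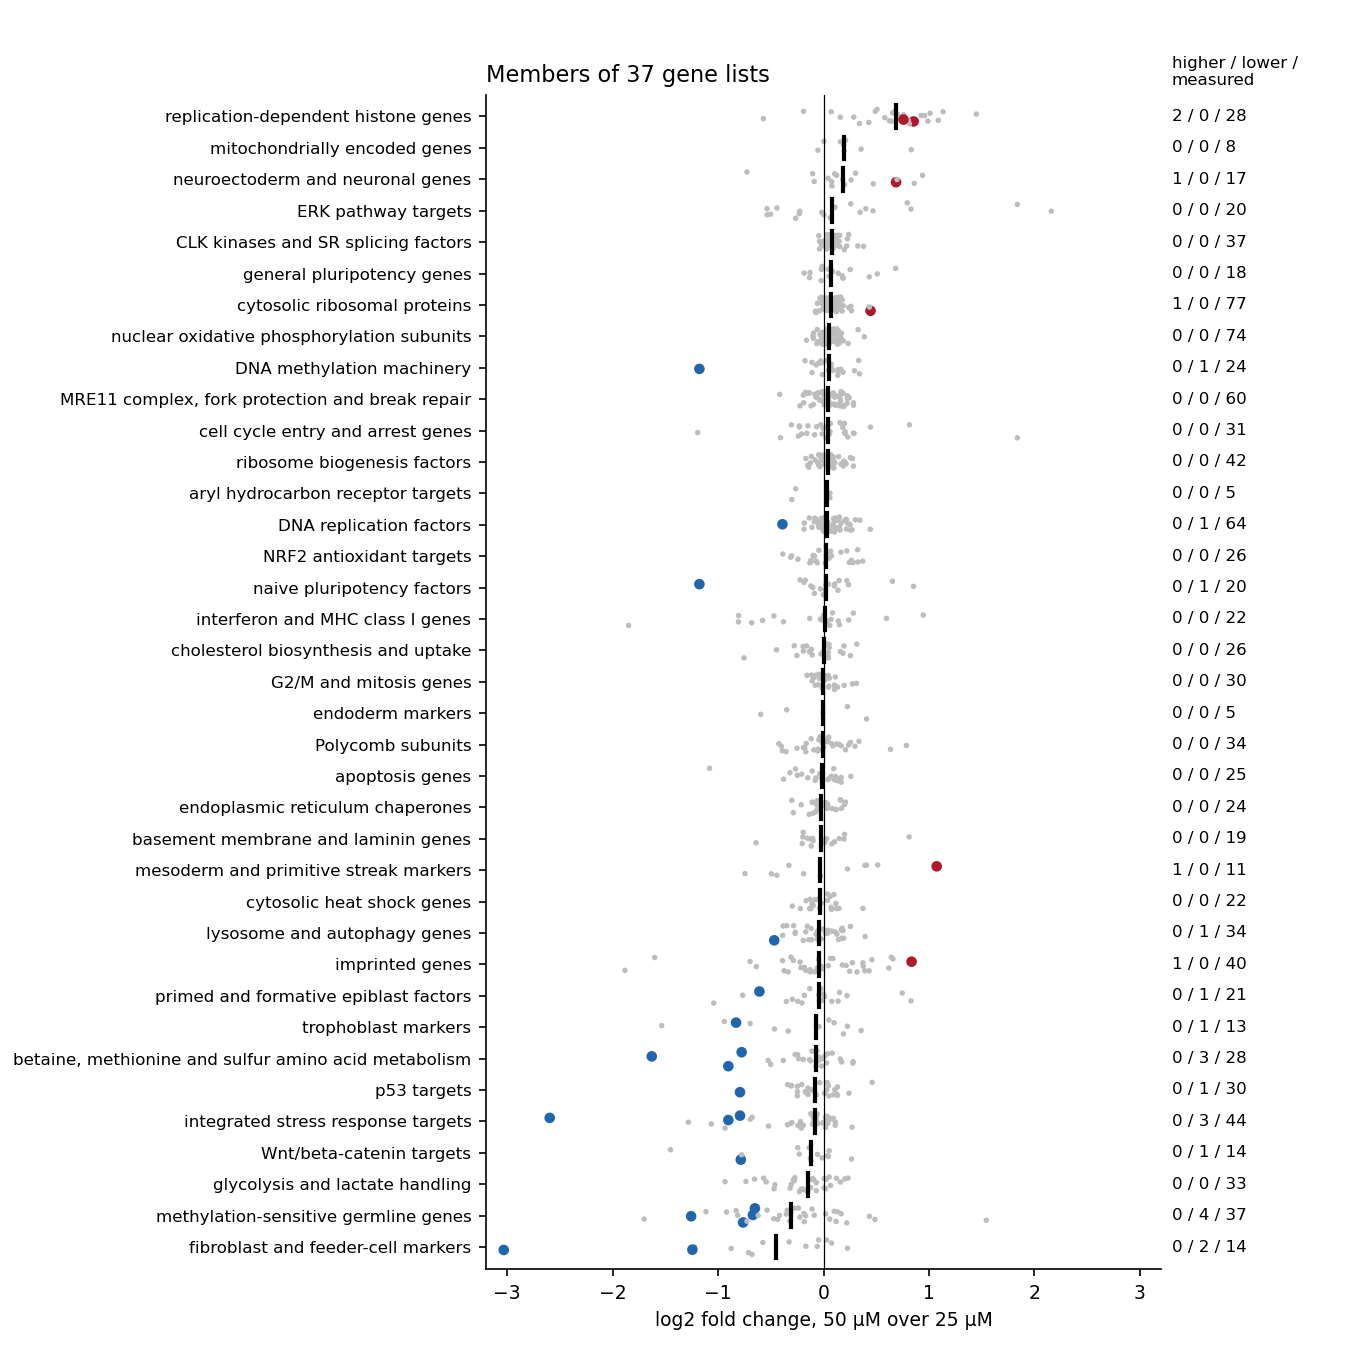
Log2 fold changes of 50 µM over 25 µM for the measured members of 37 lists, sorted by median (black bar); called members are red (higher) or blue (lower), and the columns at right count higher, lower and measured members. Histone genes have the highest median, 0.69, and fibroblast markers the lowest, -0.45; the 2-cell-like list, with counts near 0, is left out.

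The level in 2i alone was set beside both doses. These comparisons share libraries with the one between the doses, so only their values are given. Against 2i alone, edgeR called 1994 genes at 50 µM (15.1%), 927 higher (7.01%) and 1067 lower (8.07%), and 124 at 25 µM (0.937%), 60 higher (0.454%) and 64 lower (0.484%); with the block the counts were 3240 and 627. The 129 genes lower at 50 than at 25 µM had a median log2 fold change of -1.11 at 50 µM over 2i alone and of -0.24 at 25 µM over 2i alone. The 24 higher genes had medians of 1.25 and 0.37.

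Some genes stepped down or up at each dose. Gsto1 averaged 125 ± 12.6 CPM in 2i alone, 94.7 ± 4.4 at 25 µM and 49.0 ± 4.6 at 50 µM (SD, n = 3 each), and Smc1b 48.5 ± 3.2, 32.0 ± 1.9 and 18.8 ± 2.0 CPM. Rhox5 averaged 431 ± 41.3, 225 ± 38.9 and 142 ± 21.0 CPM in that order, and Gm21761 25.2 ± 3.6, 5.0 ± 1.4 and 0.654 ± 0.204 CPM. Upward, Bmp4 averaged 42.5 ± 7.5, 81.8 ± 17.2 and 172 ± 40.1 CPM, Hist1h2ae 6.37 ± 1.47, 14.9 ± 1.9 and 26.9 ± 3.2 CPM, and Rpl13a 369 ± 12.5, 717 ± 27.2 and 977 ± 90.5 CPM.

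Others were near their 2i level at 25 µM and apart from it at 50 µM. Bhmt averaged 16.0 ± 2.3 CPM in 2i alone, 16.6 ± 1.0 at 25 µM and 5.32 ± 1.78 at 50 µM; its log2 fold change over 2i alone was 0.05 ± 0.18 at 25 µM (edgeR adjusted p = 0.941) and -1.58 ± 0.21 at 50 µM (edgeR adjusted p = 3.12e-05). Prag1 had -0.05 ± 0.15 at 25 µM and -1.20 ± 0.16 at 50 µM on that scale, Slc9b1 -0.14 ± 0.11 and 0.51 ± 0.11, and Otx2 0.12 ± 0.12 and -0.49 ± 0.12. Stmn2 averaged 251 ± 14.2, 288 ± 27.0 and 464 ± 52.0 CPM in 2i alone and at 25 and 50 µM. Whether the step between the doses differed from the one between 2i alone and 25 µM was not tested.

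**Figure D4:**
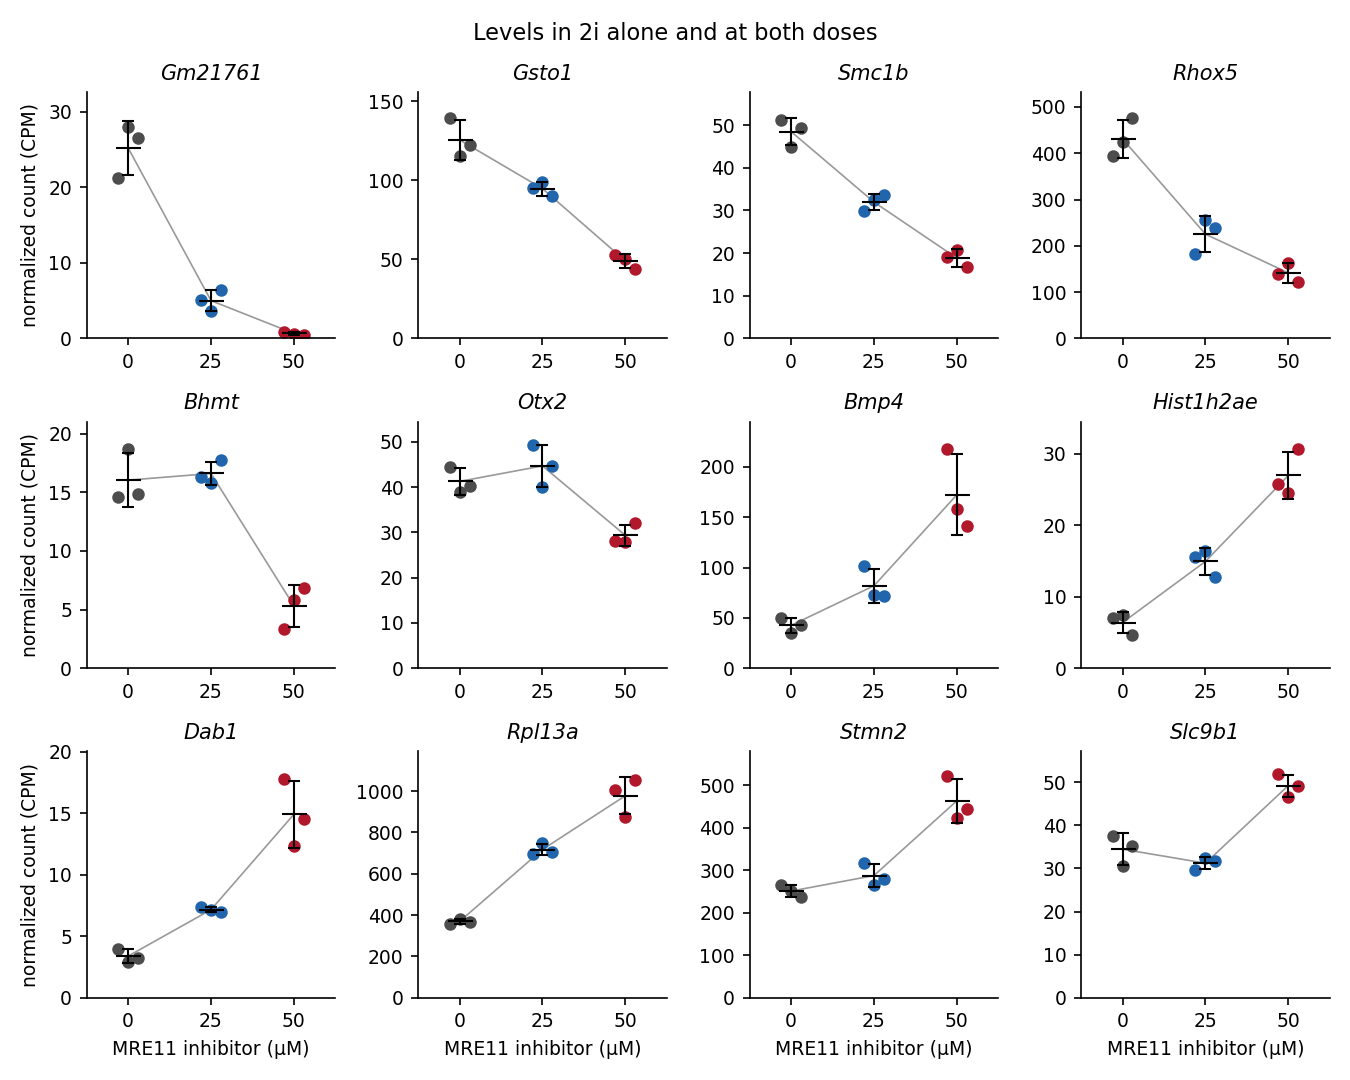
Normalized counts (CPM) of 12 genes in 2i alone (0), at 25 µM and at 50 µM; points are libraries and black bars mean ± SD (n = 3). Gm21761, Gsto1, Smc1b and Rhox5 are lower at each step, Bmp4, Hist1h2ae, Dab1 and Rpl13a higher at each step, and the means of Bhmt, Otx2, Stmn2 and Slc9b1 differ more between 25 and 50 µM than between 0 and 25 µM.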

How the data were processed

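Gene expression was measured in 12 QuantSeq 3′ mRNA libraries of total RNA. The authors deposited unnormalized counts of each gene, in 1 table per library. The submitters' processing notes list FastQC, STAR, DESeq2 1.32.0 and GRCm38. These sources do not say how reads were counted or whether strand or molecular identifiers were used, so overlapping genes and near-identical copies are uncertain. Each table had 56805 features, of which 114 spike-in features with 2 counts in all were left out. Groups and replicate numbers came from the labels.

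All 12 libraries entered 1 fit in edgeR 4.0.16 (R 4.3.3; filterByExpr, TMM, robust quasi-likelihood F test, Benjamini-Hochberg over 13230 genes; called at an adjusted p below 0.05; SE is the log2 fold change divided by the square root of F). Only list members that passed the filter count as measured. The script was tested on simulated data. DESeq2 1.42.0, limma 3.58.1 (voom), other scalings and filters, a replicate block and the omission of each library were tried.

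Replicate numbers come from the labels' titles, which do not say what they share. Deviations from group means over 8927 genes correlated at 0.492, 0.247 and 0.309 between same-numbered libraries of the doses. The fit with the block used the numbers as pairs and called 542 genes. The main fit did not use them and called 153. Replicates were not duplicates: chi-square over its degrees of freedom was 4.16 to 11.6.

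Named genes were the 12 largest changes per direction with mean log2 CPM no less than 3 and groups apart, up to 4 called members per list or else the 1 with the smallest p, the 4 smallest p per direction, and anchor genes. Genes with a predicted or clone name (such as Gm or Rik names) were left out of the largest changes and the smallest p. Others are said to be picked later, or stand as marker or list values. A few genes that the rule takes are not reported here and appear only within counts. The members and lists were chosen with earlier results of these data known. Promoters and symbols are from RefSeq and GENCODE.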

Additional observations from a re-analysis of the deposited data

How the results depend on the processing

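The 153 calls between the doses (24 higher, 129 lower at 50 µM) depended most on how replicates entered. With the replicate block 542 genes were called (168 higher, 374 lower); with only the 6 libraries and the block 759 were called (268 higher, 491 lower). Without a low-count filter there were 329 (71 higher, 258 lower). Leaving out 1 library at a time gave 38 to 203 calls, 6 to 46 of them higher and 32 to 157 lower. With the block, calls against 2i alone numbered 3240 at 50 µM and 627 at 25 µM. DESeq2 called 197, limma voom 119, RLE scaling 156, upper-quartile scaling 167, a mean of at least 5 CPM 133 and the 6 libraries alone 140. Lower genes were 84.3% of the calls, 69.0% with the block and 64.7% with the 6 libraries and the block. Of 148 other results (named genes and list counts), tried under 2286 combinations with a setting in all, 0 reversed direction; 113 combinations ended a call and 55 added one, and in 172 a list's count of calls moved by over 1.5 times, or to or from 0. The block ended none of the 153 calls. At these depths the 2-cell-like genes, with a few counts per library, were not called without the block.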
